A study of Mus musculus with 6 samples.

Results

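The genes described here are 9 genes of the basophil and mast cell lineage, chosen by name: Fcer1a, Fcer1g, Ms4a2, Cpa3, Hdc, Prg2, Gzmb, Mcpt8 and Prss34. All 9 were found among the 21851 genes of the deposited tables. Their transcripts were read by RNA sequencing of cells labelled long-term haematopoietic stem cells (LT-HSCs), which were sorted from bone marrow with the gate Lin-c-Kit+Sca1+CD34-CD135-. All mice had the genotype labelled WT and were kept under specific pathogen-free conditions. The sources used here give neither age nor sex. The 2 groups were mice on a control diet (CD, 3 libraries) and mice on a high cholesterol diet (HCD, 3 libraries), each for 3 months. Whether a library stands for 1 animal or a pool is not stated, and the p-values therefore reflect spread among these libraries alone, which may be technical.

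Basophils, which circulate in blood, and mast cells, which live in tissues, are granule-bearing cells that bind IgE through a high affinity receptor made of an alpha chain (Fcer1a), a beta chain (Ms4a2) and paired gamma chains (Fcer1g). Cross-linking of bound IgE releases histamine, proteases and lipid mediators from the cells. Both arise in the bone marrow from progenitors in which the transcription factor GATA2 is active and IL-3 or stem cell factor is present. Cpa3 is also known to be transcribed in early progenitors, before mature basophils or mast cells form.

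Under HCD 7 of the 9 genes were higher and 0 were lower (limma on log2(FPKM + 1), two-sided, Benjamini-Hochberg adjusted p under 0.05 over all tested genes). FPKM are fragments per kilobase of transcript, scaled to the library's mapped fragments. Of all 10676 tested genes 6.28% were higher and 7.66% lower by the same rule (670 and 818 genes). With TMM scaling 761 were higher and 582 lower, and the 9 genes gave the same counts. The 9 genes were chosen with earlier results of these data known, so contrasts with all tested genes are no independent support. The 7 were Fcer1a, Fcer1g, Cpa3, Hdc, Prg2, Mcpt8 and Prss34. Ms4a2 was tested and did not pass, and Gzmb stayed under 1 FPKM in every library and was not tested. In the same 7 genes each HCD library lay above each CD library, which held for 15.0% of all tested genes, while 22.7% lay wholly below. At an unadjusted p under 0.05 the counts were also 7 higher and 0 lower. The median log2 change of the 8 tested genes was 0.74, against -0.03 over all tested genes. The 7 genes were above 1 FPKM in every CD library, so none passed the filter only through HCD. The summed level of the 9 genes was 61.7 to 66.7 FPKM in the CD libraries and 101 to 114 FPKM in the HCD libraries. In RNA from a sorted population, a larger share of cells with these transcripts and more transcript per cell cannot be told apart.

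**Figure D1:**
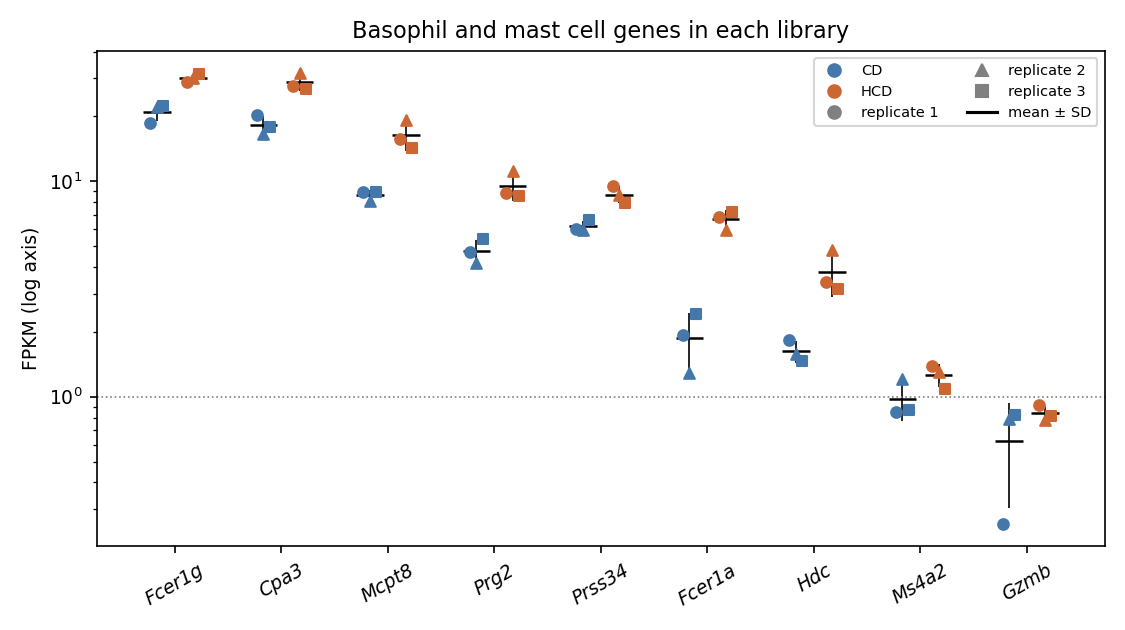
FPKM (log axis) of the 9 genes in each of the 6 libraries, with the mean and SD of each diet group (n = 3) and a dotted line at 1 FPKM. The HCD libraries lie above the CD libraries in 7 genes and overlap with them in Ms4a2 and Gzmb.

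The promoters of the 9 genes were searched for words known to be bound by factors of the lineage. The 250 bases before the RefSeq start (build GRCm38.p6) were available for 8 of the genes. Either GATA word, AGATAA or TGATAA on either strand, was found in 4 of the 8, against 16.6% of 32851 promoters of the same length. The RUNX word TGTGGT was also found in 4 of 8 (14.0% of all promoters) and the PU.1 word GAGGAA in 2 of 8 (23.3%), both on either strand. A match is a description of the letters and not a binding site. The genes were chosen by name for their lineage, so these shares do not bear on the diet. A link between the words and the change under HCD was not tested. The promoters of Fcer1a, Cpa3, Prss34 and Ms4a2 are printed because they hold the GATA words, which stand in capitals (TTATCT is AGATAA on the other strand). Each runs 5′ to 3′ on the gene's strand and ends at the base before the start.
Fcer1a, chr1:173227230-173227479, minus strand: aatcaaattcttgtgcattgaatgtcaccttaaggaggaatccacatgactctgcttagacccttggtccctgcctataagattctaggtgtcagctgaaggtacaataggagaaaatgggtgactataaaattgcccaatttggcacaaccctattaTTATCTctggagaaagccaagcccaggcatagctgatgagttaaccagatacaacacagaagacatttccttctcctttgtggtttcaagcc
Cpa3, chr3:20242182-20242431, minus strand: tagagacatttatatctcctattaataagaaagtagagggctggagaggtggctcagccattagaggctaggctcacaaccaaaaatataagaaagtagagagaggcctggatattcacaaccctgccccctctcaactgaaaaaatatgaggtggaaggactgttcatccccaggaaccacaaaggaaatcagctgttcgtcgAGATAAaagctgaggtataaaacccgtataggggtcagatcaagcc
Prss34, chr17:25298144-25298393, plus strand: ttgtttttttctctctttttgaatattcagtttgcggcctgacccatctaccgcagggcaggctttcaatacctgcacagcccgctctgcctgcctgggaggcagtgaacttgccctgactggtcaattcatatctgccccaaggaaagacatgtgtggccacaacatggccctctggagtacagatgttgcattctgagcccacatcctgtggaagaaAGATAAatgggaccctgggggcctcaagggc
Ms4a2, chr19:11623720-11623969, minus strand: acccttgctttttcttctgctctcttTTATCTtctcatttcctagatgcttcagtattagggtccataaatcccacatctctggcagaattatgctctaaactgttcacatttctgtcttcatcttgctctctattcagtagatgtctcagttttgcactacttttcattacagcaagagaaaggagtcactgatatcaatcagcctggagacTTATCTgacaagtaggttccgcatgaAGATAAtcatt

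The word begins 92 bases before the start in Fcer1a, 46 in Cpa3 and 31 in Prss34. Ms4a2, the tested gene that did not pass, holds the most matches, at 224, 37 and 11 bases before the start. Fcer1g, Hdc and Mcpt8, which rose, hold none in this window, nor does Gzmb. Matches to the RUNX word were found in Fcer1a, Cpa3, Gzmb and Mcpt8.

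The chains of the IgE receptor differed in level, and the change was largest in Fcer1a. Fcer1a, the chain that binds IgE (chromosome 1, 173221284 to 173227214, GRCm38), stood at 1.92, 1.29 and 2.42 FPKM in CD replicates 1 to 3 and at 6.84, 5.95 and 7.22 FPKM in HCD replicates 1 to 3. Its mean rose 3.55-fold, from 1.88 ± 0.57 to 6.67 ± 0.65 FPKM (SD, n = 3 per group), with a log2 change of 1.43 ± 0.15 (SE, limma adjusted p = 0.00105). Every HCD library was higher than every CD library, and CD replicate 2 was the lowest of the 6. About 24.2 to 45.5 reads per CD library and 118 to 138 per HCD library lay behind these values.

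Fcer1g, the signalling chain that also serves receptors for IgG and several lectins (chromosome 1, 171229572 to 171234365), stood at 18.6, 22.1 and 22.4 FPKM under CD and at 28.8, 30.1 and 31.4 FPKM under HCD. It rose 1.43-fold, with a log2 change of 0.50 ± 0.08 (SE, adjusted p = 0.00529). It was the most abundant of the 9 genes in either group by mean, although its libraries overlapped with those of Cpa3. Ms4a2, the chain that amplifies the receptor's signal (chromosome 19, 11615523 to 11623719), stood at 0.85, 1.21 and 0.86 FPKM under CD and at 1.39, 1.31 and 1.09 FPKM under HCD. CD replicate 2 overlapped with the HCD libraries. Its log2 change was 0.20 (95% interval -0.06 to 0.45, adjusted p = 0.264). The interval holds for log2(FPKM + 1), a scale that understates changes at this low level. With a pseudocount of 0.1 the log2 change was 0.35 (limma adjusted p = 0.261), so larger changes in FPKM are not excluded. The filter took Ms4a2 in through CD replicate 2 and the HCD libraries.

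The ratio of Fcer1a to Fcer1g within a library does not depend on a common scaling factor, but can shift with transcript length trends. It was 0.103, 0.0582 and 0.108 in the CD libraries and 0.237, 0.198 and 0.23 in the HCD libraries. The ratio of Fcer1a to Ms4a2 was 2.27, 1.06 and 2.80 under CD and 4.94, 4.56 and 6.63 under HCD. Neither ratio overlapped between the groups. Each had an exact two-sided permutation p of 0.1, the smallest that 3 against 3 libraries allow, and 0.12 after Benjamini-Hochberg adjustment over the 6 ratios computed. The ratio of Ms4a2 to Fcer1g overlapped between the groups, at 0.046 ± 0.0081 under CD and 0.042 ± 0.0068 under HCD (SD, n = 3, exact permutation p = 0.5). The pairs were chosen after the values had been seen.

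Among those of the 9 genes that encode granule contents, Cpa3 was the most abundant. Cpa3 encodes carboxypeptidase A3, a mast cell granule enzyme that is transcribed early in the lineage (chromosome 3, 20215620 to 20242181). It stood at 20.3, 16.5 and 17.8 FPKM under CD and at 27.8, 31.7 and 26.9 FPKM under HCD. It rose 1.58-fold, with a log2 change of 0.64 ± 0.09 (SE, adjusted p = 0.00358). Hdc encodes histidine decarboxylase, which makes histamine (chromosome 2, 126593667 to 126619299). It stood at 1.83, 1.58 and 1.46 FPKM under CD and at 3.42, 4.80 and 3.15 FPKM under HCD. Its mean rose 2.33-fold, with a log2 change of 0.85 ± 0.14 (SE, adjusted p = 0.00651). The spread within HCD came mainly from replicate 2, the highest of the 6 libraries.

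Prg2 encodes major basic protein, the crystalline core protein of eosinophil granules that basophils and their progenitors also make (chromosome 2, 84980461 to 84983632). Its levels were 4.67, 4.18 and 5.39 FPKM under CD and 8.78, 11.2 and 8.57 FPKM under HCD. The rise was 2.0-fold, with a log2 change of 0.87 ± 0.12 (SE, adjusted p = 0.00315). Prg2 has a single annotated transcript, and its values corresponded to 75, 66 and 85 reads under CD and 147, 186 and 137 reads under HCD.

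The basophil granule serine protease genes Mcpt8 and Prss34 rose. Mcpt8 encodes a protease found in mouse basophils and widely used to mark them (chromosome 14, 56082166 to 56085273). It stood at 8.88, 8.14 and 8.94 FPKM under CD, a narrow range, and at 15.7, 19.3 and 14.2 FPKM under HCD. It rose 1.90-fold, with a log2 change of 0.85 ± 0.10 (SE, adjusted p = 0.00216). Prss34 encodes a tryptase-like protease of basophils, also known as Mcpt11 (chromosome 17, 25298394 to 25300165). It stood at 6.03, 5.92 and 6.59 FPKM under CD and at 9.47, 8.65 and 7.91 FPKM under HCD. Its rise of 1.40-fold, with a log2 change of 0.43 ± 0.08 (SE, adjusted p = 0.0134), was the smallest of the 7. The call of Prss34 was lost without CD replicate 1 (adjusted p = 0.0657), CD replicate 2 (adjusted p = 0.0628) or HCD replicate 1 (adjusted p = 0.054). The other 6 calls held whichever library was left out. The ratio of Mcpt8 to Prss34 was 1.47, 1.38 and 1.36 under CD and 1.66, 2.24 and 1.80 under HCD, with no overlap (exact permutation p = 0.1, the smallest possible).

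Gzmb encodes granzyme B, best known from cytotoxic lymphocytes and also made by mast cells and basophils (chromosome 14, 56258838 to 56262260). It stood at 0.26, 0.79 and 0.82 FPKM under CD and at 0.92, 0.78 and 0.81 FPKM under HCD. These values correspond to 7.1 to 22.3 reads per CD library and 22.3 to 26.3 per HCD library. The groups overlapped, and CD replicate 1 was low. When no filter was applied, the log2 change was 0.20 (limma adjusted p = 0.473). At this depth no difference in Gzmb was detectable.

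**Figure D2:**
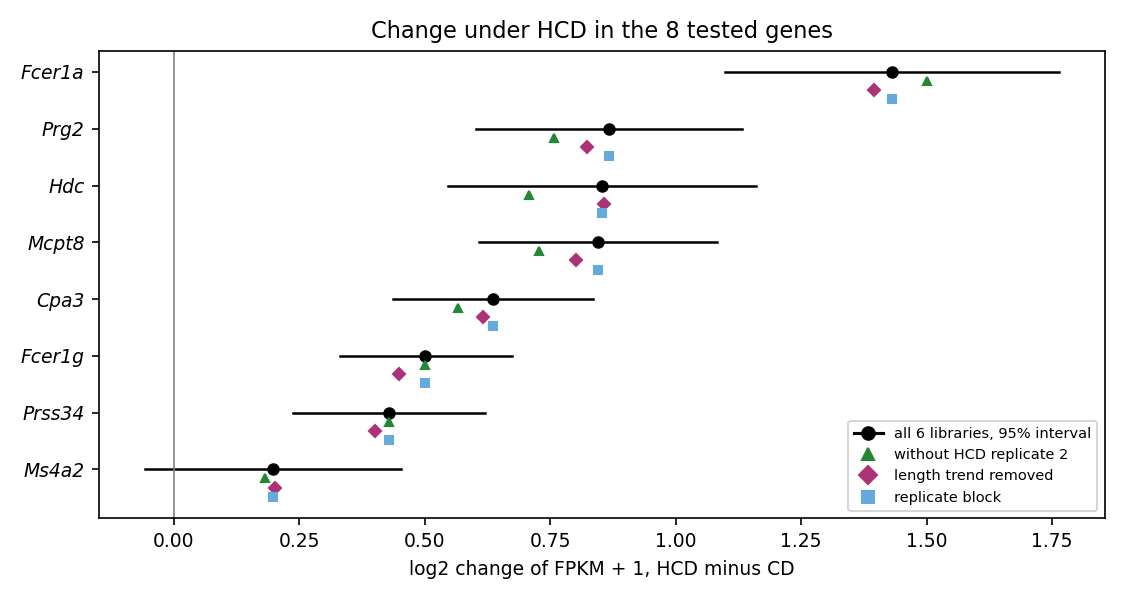
log2 change of FPKM + 1 (HCD minus CD) of the 8 tested genes with 95% intervals from limma, beside the change without HCD replicate 2, with the trend against transcript length removed, and with a replicate block. Intervals of all genes but Ms4a2 lie above 0, and the change of Fcer1a is the largest in each of these fits.

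The order of the genes by level was nearly the same in both groups. Under CD it ran from Fcer1g and Cpa3, whose libraries overlapped, through Mcpt8, Prss34 and Prg2 to Fcer1a and Hdc, which also overlapped, and then to Ms4a2 and Gzmb. Under HCD Prg2 and Prss34 overlapped with each other, while Fcer1a stood clear of Hdc. The HCD libraries did not rank alike across the genes. Within HCD, replicate 2 was the highest library for Cpa3, Hdc, Prg2 and Mcpt8 and the lowest for Fcer1a and Gzmb. Replicate 3 was the lowest for 6 of the 9 genes and the highest for both Fcer1a and Fcer1g. Leaving out HCD replicate 2 raised the share of all tested genes called higher from 6.28% to 11%. Longer transcripts were lower under HCD (Spearman rho -0.26 between length and log2 change over tested genes, given as a description). The main transcripts of Prg2 (838 bases), Mcpt8 (836 bases) and Cpa3 (1449 bases) are short and that of Hdc is longer (2392 bases). Without HCD replicate 2, the log2 changes were 0.57 for Cpa3, 0.71 for Hdc, 0.76 for Prg2 and 0.73 for Mcpt8, and 7 genes were again called higher. With the trend against length removed, a setting chosen after seeing the data, 7 were called as well.

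The protease genes lie in clusters of related genes. The chymase and granzyme locus on chromosome 14, from Cma1 to Gzmb (55941451 to 56262260), holds 15 coding genes over 320.8 kb, and all 15 are in the tables. Of these, 2 reached 1 FPKM in every library, Mcpt8 and its neighbour Ctsg, which starts 17.3 kb away and encodes cathepsin G of neutrophil and monocyte granules. Ctsg rose from 111 ± 4.03 to 271 ± 7.21 FPKM (SD, n = 3, adjusted p = 2.56e-06). Another 8 genes of the locus were listed at 0 in all 6 libraries, among them the mast cell protease genes Mcpt1, Mcpt9 and Cma2 and the granzyme genes Gzmd, Gzme, Gzmf, Gzmg and Gzmn. Cma1, Mcpt2, Mcpt4 and Gzmc held between 0 and 0.5 FPKM. The mast cell chymase gene Mcpt4 was listed at 0 in each CD library and at 0, 0.10 and 0.32 FPKM under HCD.

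The tryptase locus on chromosome 17, from Prss34 to Tpsg1 (25298394 to 25374442), spans 76.0 kb. Prss34 was the only gene of the 5 in the tables with at least 1 FPKM in all libraries. Prss28, Prss29 and Tpsg1 were listed at 0 throughout. The mast cell tryptase gene Tpsb2 was listed above 0 in CD replicate 1 (0.09 FPKM) and HCD replicate 1 (0.22 FPKM). Cma1, Mcpt4 and Tpsb2, defining genes of connective tissue mast cells, were at or near 0 in both groups. The symbol Tpsab1 was not analysed here.

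**Figure D3:**
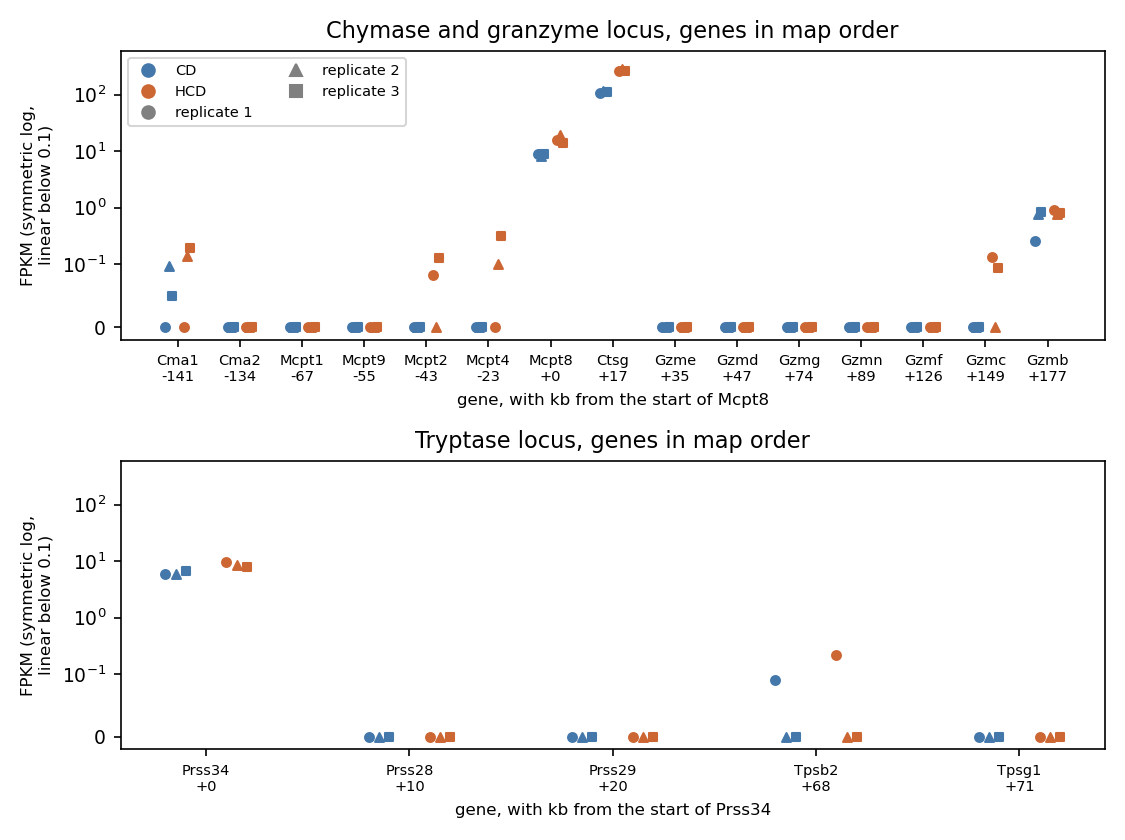
FPKM in each library (symmetric log axis, linear below 0.1) of the coding genes in the chymase and granzyme locus (15 genes) and the tryptase locus (5 genes in the tables), in map order with the distance in kb from the start of Mcpt8 or Prss34. Mcpt8 and Ctsg in the one and Prss34 in the other are above 1 FPKM in all 6 libraries.

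Other genes of the IgE receptor programme were described from lists chosen with earlier results of these data known. The counts below are therefore no independent support. Beside these and the later lists, 6.28% of all tested genes were higher and 7.66% lower. Among 22 genes of signalling downstream of the receptor, all tested, 3 were higher and 0 lower, with a median log2 change of 0.11. The kinase genes Lyn (24.5 ± 0.30 and 27.2 ± 2.02 FPKM under CD and HCD), Syk (40.4 ± 1.56 and 38.3 ± 1.22) and Btk (54.0 ± 0.70 and 51.7 ± 3.35; SD, n = 3) did not pass. Those higher were the adaptor genes Lcp2 (log2 change 0.29, adjusted p = 0.0113) and Gab2 (0.31, adjusted p = 0.0289), and Vamp8 (0.20, adjusted p = 0.0379), which encodes a vesicle fusion protein. These calls were unstable: Lcp2 did not pass without CD replicate 1 (adjusted p = 0.0582), and Gab2 and Vamp8 did not pass without any 1 CD library or without HCD replicate 1 (adjusted p up to 0.114 and 0.139). Without a filter on low values Gab2 (adjusted p = 0.0536) and Vamp8 (adjusted p = 0.0635) were lost as well, and Vamp8 also with TMM scaling (adjusted p = 0.0532) or without a mean-variance trend (adjusted p = 0.0749). The list's count of higher genes ran from 0 to 8 over the fits that left out 1 library. It was 8 without HCD replicate 2, a fit in which 11% of all tested genes were called higher.

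Fcer1g pairs with other receptors as well, and 3 of 9 genes listed as its partners were tested. All 3 were higher. Fcgr3, which encodes a low affinity IgG receptor, stood at 1.72, 1.21 and 1.42 FPKM under CD and at 5.22, 6.41 and 4.70 FPKM under HCD (log2 change 1.39, adjusted p = 0.000609). Clec4e, the gene of the lectin Mincle, went from 6.85 ± 0.44 to 9.70 ± 0.45 FPKM (SD, n = 3, adjusted p = 0.00756). The related lectin gene Clec4d went from 2.83 ± 1.08 to 5.28 ± 0.45 FPKM (adjusted p = 0.0365), and did not pass without CD replicate 1, HCD replicate 1 or HCD replicate 3 (adjusted p up to 0.0925), without a filter (0.0867) or without a mean-variance trend (0.0514). The platelet collagen receptor gene Gp6 was listed at 0 in each CD library. The list also holds Clec5a and Pilrb1, which are better known as partners of the DAP12 adaptor.

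Of 12 receptors for growth factors and cytokines of basophils and mast cells, 9 were tested, 5 were higher and 0 lower. Csf2rb2, the gene of the beta chain particular to the mouse IL-3 receptor, stood at 2.06, 2.68 and 2.14 FPKM under CD and at 5.03, 4.53 and 4.85 FPKM under HCD (log2 change 0.82, adjusted p = 0.00194). Csf2rb, its near-identical neighbour that is shared with the IL-5 and GM-CSF receptors, went from 12.6 ± 0.44 to 16.3 ± 0.42 FPKM (adjusted p = 0.00739). Reads that match both copies may have been split between them, so their separate levels are uncertain. Crlf2, a chain of the receptor for thymic stromal lymphopoietin, went from 50.8 ± 1.2 to 66.7 ± 4.30 FPKM (adjusted p = 0.00436). Il18r1 had a log2 change of 0.50 (adjusted p = 0.0102), and 0.0533 without CD replicate 1. Il3ra, the IL-3 receptor alpha chain gene, went from 10.9 ± 0.42 to 14.1 ± 0.82 FPKM (adjusted p = 0.0125), and did not pass without CD replicate 1, CD replicate 2 or HCD replicate 1 (adjusted p up to 0.065). It was named after its values were seen. Kit, the stem cell factor receptor gene on which the sort was gated, stood at 122 ± 0.84 and 118 ± 3.94 FPKM and did not pass. Il1rl1, the IL-33 receptor gene typical of mature mast cells and basophils, was between 0.41 and 0.54 FPKM in all libraries.

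All 20 transcription factor genes listed for the lineage were tested, with 3 higher, 1 lower and a median log2 change of 0.06. The shares over all tested genes were 6.28% higher and 7.66% lower. Gata2 stood at 47.8, 47.4 and 47.8 FPKM under CD and at 68.8, 55.7 and 66.5 FPKM under HCD (log2 change 0.40, adjusted p = 0.0113). The groups did not overlap, but the call was lost when any 1 CD library was left out (adjusted p up to 0.0541). Gata1 went from 6.98 ± 0.64 to 8.84 ± 0.44 FPKM (adjusted p = 0.0408), and lost its call without any library but HCD replicate 2 (adjusted p up to 0.148) and without a filter (0.0674). Hes1, a Notch target gene, fell from 4.94 ± 0.47 to 2.72 ± 0.43 FPKM (adjusted p = 0.00665). Cebpa, needed for basophils, had a log2 change of -0.01 (31.1 ± 1.38 and 30.9 ± 1.93 FPKM), and Mitf, needed for mast cells, one of -0.09 (1.23 ± 0.15 and 1.09 ± 0.14 FPKM). Neither passed. The count of higher genes ran from 0 to 5 over the fits that left out 1 library. It was 5 without HCD replicate 2, a fit in which 11% of all tested genes were called higher.

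The remaining lists of the lineage and of eosinophils held few tested genes. Of 20 mast cell protease and granule genes 19 were in the tables, 8 were tested, 2 were higher and 0 lower. The 2 were Srgn, the gene of the granule proteoglycan serglycin, at 173 ± 0.69 and 213 ± 4.71 FPKM (adjusted p = 0.00311), and Alox5ap, needed for leukotriene synthesis, at 148 ± 3.66 and 179 ± 7.26 FPKM (adjusted p = 0.00895, and 0.0545 without CD replicate 1). Both are expressed by many blood cells. Of 15 basophil surface and effector genes 9 were tested, with 2 higher and 0 lower. Cd69 went from 43.4 ± 2.46 to 78.9 ± 10.6 FPKM (adjusted p = 0.00142) and Ccr2 from 1.83 ± 0.23 to 3.72 ± 0.49 FPKM (adjusted p = 0.005). Cd200r3, a surface marker of basophils and mast cells, was between 0.019 and 0.12 FPKM, and its counts were 1.4 to 8.9 reads per library. Of 11 eosinophil genes 3 were tested and 0 were higher or lower. Epx, the eosinophil peroxidase gene, was at 0.31 ± 0.09 and 0.25 ± 0.02 FPKM. In 3 genes of that list, named after their values were seen, each HCD library lay above each CD library. This held for 15.0% of all tested genes. Siglecf, at 3.69 ± 0.40 and 5.12 ± 1.18 FPKM, did not pass (adjusted p = 0.106). The ribonuclease genes Ear1 (0.12 ± 0.15 and 0.59 ± 0.14 FPKM) and Ear2 (0.34 ± 0.27 and 1.21 ± 0.20 FPKM) were not tested, and they belong to a family of similar copies, so their separate levels are uncertain. Ccr3, not tested, was lower by mean (0.20 ± 0.05 and 0.10 ± 0.06 FPKM), with overlap. Galc and Ptger3, the other tested eosinophil genes, overlapped between the groups, and the list's median log2 change was -0.04.

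In Il4 and Cyp11a1, of the basophil surface and effector list and under the filter, each HCD library lay above each CD library. Both were named after their values were seen. Over all tested genes 15.0% lay wholly above and 22.7% wholly below. Csf1 of the same list lay wholly below (2.86 ± 0.20 and 2.38 ± 0.15 FPKM) and did not pass (limma adjusted p = 0.174). Itgb7 lay wholly above and did not pass either (limma adjusted p = 0.0958). Il6, not tested, and Ccl3 were lower by mean, with overlap. Il4, the cytokine gene that basophils transcribe early, was at 0.18, 0.45 and 0.36 FPKM under CD and at 0.85, 1.97 and 2.06 FPKM under HCD. This corresponds to 2.1 to 5.2 reads per CD library and 10.3 to 23.8 per HCD library. Cyp11a1, the gene of a steroid-producing enzyme, was at 0.87, 0.54 and 0.59 FPKM under CD and at 1.24, 1.36 and 0.99 FPKM under HCD. Neither was tested.

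**Figure D4:**
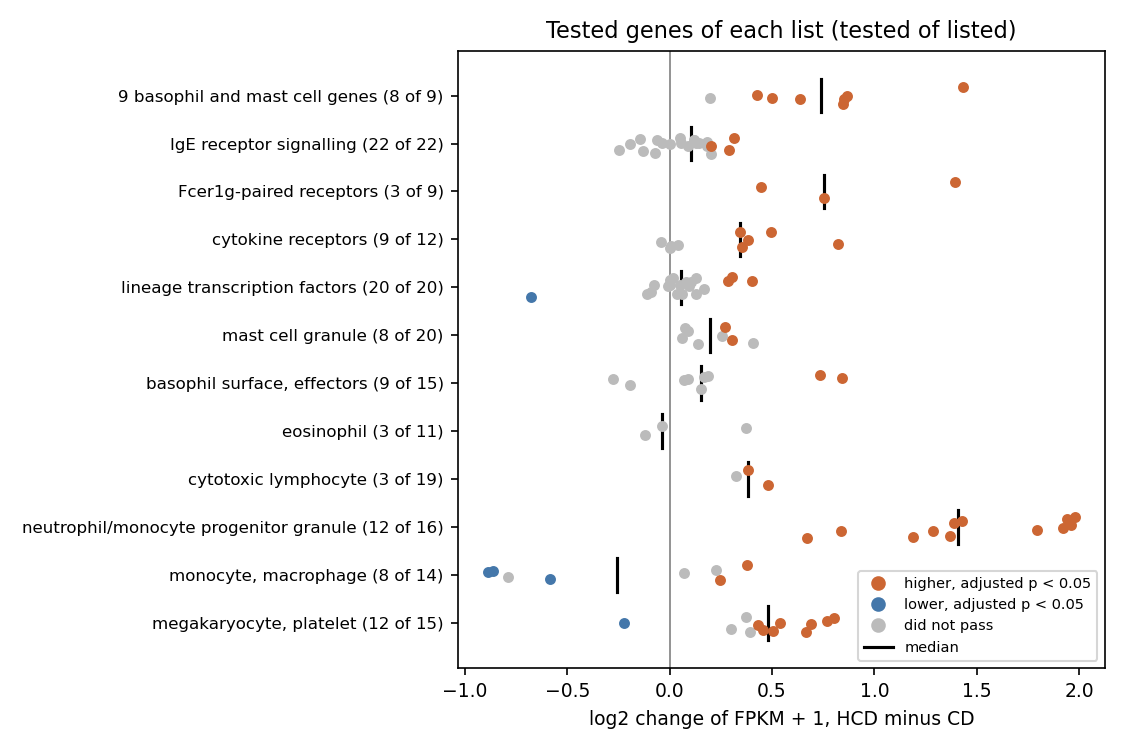
log2 change of FPKM + 1 (HCD minus CD) of each tested gene in the 9 genes and in 11 other lists, with the number tested of those listed, coloured by the limma call and with the list's median as a bar. The median of the 9 genes is 0.74, that of receptor signalling 0.11 and that of neutrophil and monocyte progenitor granule genes 1.41.

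Markers of other cells were read beside these results. Of 16 genes listed as granule genes of neutrophil and monocyte progenitors, 15 were in the tables, 12 were tested and all 12 were higher. The list's median log2 change was 1.41. Its summed level was 893 to 924 FPKM under CD and 1707 to 1885 FPKM under HCD. The list was led by Elane (44.8 ± 1.14 to 180 ± 4.74 FPKM, adjusted p = 1.61e-07), Ctsg, Ly6c2 (9.63 ± 0.63 to 39.4 ± 3.44 FPKM, adjusted p = 5.16e-06) and Ms4a3 (9.64 ± 0.76 to 39.9 ± 4.82 FPKM, adjusted p = 1.18e-05). Not all of its genes encode granule contents, and Ly6c2 and Ms4a3 encode membrane proteins. For Lcn2 and Camp, under 1 FPKM in each CD library, only the HCD libraries met the filter. Of 15 megakaryocyte and platelet genes 12 were tested, 8 were higher and 1 lower, with sums of 216 to 219 and 285 to 308 FPKM. Itga2b (adjusted p = 0.000349), Selp (0.000493), Plek (0.00106) and Cd9 (0.00311) led that list, all higher. Gp1ba, another of the 8, met the filter through HCD alone. Of 14 monocyte and macrophage genes 8 were tested, 2 were higher and 3 lower, with sums of 172 to 182 and 183 to 223 FPKM. The 3 lower genes, C1qb and C1qa of the complement and Vcam1, were under 1 FPKM in each HCD library and met the filter through CD alone. C1qb and C1qa had log2 changes of -0.86 and -0.89 (adjusted p = 0.00274 and 0.00373), and Vcam1 one of -0.58 (adjusted p = 0.0231, and 0.0597 without HCD replicate 3). Csf1r was higher (adjusted p = 0.0151, and up to 0.068 without a CD library). Among 19 cytotoxic lymphocyte genes 14 stayed under 1 FPKM in every library, and Cd3e and Gzmk were listed at 0. Nkg7 (104 ± 2.76 and 136 ± 11.4 FPKM, adjusted p = 0.00739) and Klrb1c were higher. Gzmm, not tested, went the other way (1.07 ± 0.18 and 0.61 ± 0.15 FPKM), with each HCD library below each CD library. Ncr1, near 0 and not tested, also lay wholly below (0.05 ± 0.02 and 0.02 ± 0.02 FPKM). Klrb1c (0.63 ± 0.26 and 1.26 ± 0.04 FPKM, adjusted p = 0.0391) met the filter through HCD alone, and did not pass the test without CD replicate 1 or CD replicate 2 (adjusted p up to 0.131) or without a filter (0.0618). Of 10 B cell genes 6 were tested, 1 was higher and 1 lower, with sums of 121 to 130 and 190 to 209 FPKM. Jchain alone went from 40.3 ± 2.82 to 108 ± 8.68 FPKM (adjusted p = 1.85e-05). Igll1 had a log2 change of -1.29 (adjusted p = 0.0047) and met the filter through CD alone. The B cell factor genes Pax5 (0.28 ± 0.02 and 0.08 ± 0.01 FPKM) and Ebf1 (0.44 ± 0.05 and 0.17 ± 0.09 FPKM) were not tested, and each HCD library lay below each CD library. Ms4a1 (0.05 ± 0.05 and 0.26 ± 0.10 FPKM), also not tested, went the other way, with each HCD library above each CD library. Over all tested genes 22.7% lay wholly below and 15.0% wholly above. The part of these cells in the change of the 9 genes was not tested.

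The 6 libraries held an estimated 18820000 to 19980000 reads or read pairs and 10549 to 10675 genes at 1 FPKM or more. Transcripts of genes whose protein the gate excludes were abundant, with Cd34 at 471 ± 15.4 and 458 ± 17.0 FPKM and Flt3 (CD135) at 113.7 ± 1.19 and 104.5 ± 4.12 FPKM (SD, n = 3). Neither passed between diets. The cells are therefore called by their label here. Of 10 sort and stem cell markers, Slamf1 (log2 change 0.67, adjusted p = 0.0118) and Vwf (0.46, adjusted p = 0.0185) were higher and Hlf (-0.20, adjusted p = 0.0219) lower. None of the 3 calls held in every fit without 1 library (adjusted p up to 0.0597, 0.0812 and 0.189 over all alternatives). The 9 genes share few sequences with others. No stretch of 50 bases of their main transcripts occurs in another gene's transcripts, apart from Ms4a2 (2.7% of stretches). The annotated genes that overlap them are 1 microRNA gene each in Cpa3 and Mcpt8.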

How the data were processed

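RNA of sorted bone marrow cells from 3 CD and 3 HCD libraries was prepared with a stranded mRNA kit, per the labels' protocols. The deposited values are taken as FPKM, judged from the values, since per the file headers each value column carries a library name and no unit, and RPKM would look alike. The submitters' processing notes name fastp, HISAT2, StringTie and the builds GRCm38 and mm10. The versions, annotation, filters and strand setting were not given in the sources used here. Each table had 21878 rows, and 27 with a date in place of a symbol (0.127% of the FPKM) were left out.

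Genes that reached 1 FPKM in 3 or more libraries were tested with limma 3.58.1 (R 4.3.3, mean-variance trend, robust) on log2(FPKM + 1), two-sided, with Benjamini-Hochberg adjustment over all tested genes and a threshold of 0.05. This scale understates the change of low genes. The script was tested on simulated data. Positions and lengths are from GENCODE vM21, and depth comes from the size of 1 read in genes with a single transcript. Of 2405 such values of up to 10 reads, 42.9% were within 0.05 of a whole number, so read numbers are estimates, and no count model was used. Read numbers cover counting error only.

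Deviations from group means correlated at 0.103, 0.292 and 0.166 between same-numbered libraries, from the data and not from the labels. CD replicate 1 with HCD replicate 3 reached 0.098, and CD replicate 3 with HCD replicate 1 reached 0.094. Pairing by number was therefore not clear for replicates 1 and 3. A replicate block was fitted as an alternative. All 9 genes are named, and from each other list up to 4 tested genes with the smallest p where they passed, along with defining markers. The result of 1 gene is not reported here. The genes and lists were chosen with earlier results of these data known.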

Additional observations from a re-analysis of the deposited data

How the results depend on the processing

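The count of 7 higher and 0 lower genes was the same with a pseudocount of 0.1, without a filter, with quantile normalization, with TMM factors, without a mean-variance trend, with the trend against transcript length removed, and with that and HCD replicate 2 left out. The last 2 were chosen after seeing the data. With the replicate block 7 were higher and 0 lower, and the block ended no call among the 9 genes. With a filter of 5 FPKM 6 genes were tested and 6 were higher, since Hdc, Ms4a2 and Gzmb fall below it. Fcer1a met that filter through the HCD libraries alone, so its call there is no sign of stability. The same limit holds for Prg2, which reached 5 FPKM under CD in replicate 3 only (5.39 FPKM). Leaving out 1 library gave 6 to 7 higher and 0 lower, and the gene lost was Prss34. Over the same settings the log2 change ran from 1.28 to 1.81 for Fcer1a and from 0.37 to 0.49 for Prss34. Over all tested genes, leaving out 1 library gave 258 to 1171 genes higher and 177 to 1501 lower, against 670 and 818, with the highest counts when HCD replicate 2 was left out. Removing the length trend as well gave 1307 higher and 1204 lower. Counts in other lists moved more. Higher genes of IgE receptor signalling went from 3 to between 0 and 8, cytokine receptors from 5 to between 3 and 5, transcription factors from 3 to between 0 and 7, mast cell granule genes from 2 to between 1 and 5, receptors paired with Fcer1g from 3 to between 1 and 3, basophil surface genes from 2 to between 1 and 3, eosinophil genes from 0 to at most 2, cytotoxic genes from 2 to between 1 and 2, monocyte genes from 2 to between 0 and 3, megakaryocyte genes from 8 to between 5 and 8, neutrophil and monocyte progenitor granule genes from 12 to between 9 and 13, B cell genes from 1 to at most 2 and sort markers from 2 to between 0 and 4. Lower genes went from 1 to between 0 and 2 in transcription factors, 3 to between 0 and 4 in monocyte genes, 1 to between 0 and 3 in B cell genes, 1 to between 0 and 2 in sort markers, and 1 to between 0 and 1 in megakaryocyte genes. The cause was not tested. The values of Gzmb, Il4 and Cd200r3 rest on an estimated 1.4 to 26.3 reads per library.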
